A study of Mus musculus with 39 samples.

Results

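The miRNAs encoded between Dlk1 and Dio3 on mouse chromosome 12 were followed on Agilent 1-colour miRNA arrays through 5 days of differentiation of mouse embryonic stem cells (ESCs). Members were chosen by name only, as every array row whose miRNA number belongs to the cluster, with any arm or letter suffix. The 45 numbers of the cluster gave 71 rows of the 650 miRNAs on the arrays. The rule used no measured value, although it was set with earlier results of these data known. The cells were of the TCL-1 line, derived from 129/SvJae mice, and had been kept on mitomycin C-treated mouse embryonic fibroblast feeders with LIF, with the feeders removed by a short plating on gelatin before differentiation. The 39 arrays fall into 13 groups of 3: undifferentiated ESCs, and cells held for 1, 3 or 5 days in RPMI 1640 with B27 and sodium butyrate without growth factor (control), with Wnt3a at 50 ng/ml, with Activin A at 100 ng/ml, or with the 2 combined at these doses (Activin A plus Wnt3a). Activin A, a TGF-beta family ligand, drives ESCs towards definitive endoderm, and the experiment asked what Wnt3a adds to it. The labels do not say whether the 3 arrays of a group came from separate cultures, so p-values measure the spread between these samples, which may be technical, and all cells came from 1 line.

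The Dlk1-Dio3 domain is imprinted. Its protein-coding genes, Dlk1, Rtl1 and Dio3, are expressed from the paternal allele, and the non-coding RNAs Meg3, Rian and Mirg, together with the miRNAs, come from the maternal allele, where the miRNAs are cut from long shared transcripts. The domain is known for its activity in embryonic, neural and placental tissue, and its silencing in some mouse pluripotent stem cell lines goes with reduced developmental potential. A miRNA hairpin yields a 5p and a 3p arm; in the older names used by the arrays, an asterisk marks the arm that was regarded as the minor product.

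Of the 71 rows, 62 matched a mature sequence of the RefSeq miRNA annotation (GRCm38.p6), from 40 hairpin genes. All 62 lay on the plus strand of chromosome 12, within 180.1 kb from chr12:109563692 to 109743795. The annotation places Meg3 at 109540996 to 109571729, Rtl1 at 109564900 to 109604418, Rian at 109603945 to 109661716 and Mirg at 109734981 to 109749458. The sequences below are those of the members on which the results turn, from the Meg3 end of the locus to the Mirg end, 5′ to 3′, with the seed (bases 2 to 8, which pair with the target) in capitals.
miR-770-3p: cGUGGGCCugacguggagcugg
miR-665: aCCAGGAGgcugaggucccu
miR-431: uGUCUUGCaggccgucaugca
miR-127: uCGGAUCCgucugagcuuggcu
miR-136: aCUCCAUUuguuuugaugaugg
miR-136*: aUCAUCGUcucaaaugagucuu
miR-370: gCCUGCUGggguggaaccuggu
miR-494: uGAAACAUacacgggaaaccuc
miR-376b: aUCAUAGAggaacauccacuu
miR-376a: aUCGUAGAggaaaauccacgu
miR-377: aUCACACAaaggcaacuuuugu
miR-541: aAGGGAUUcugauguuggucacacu
miR-410: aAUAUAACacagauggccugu

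The mature miR-127, which lies antisense to Rtl1 and is complementary to its transcript, is at chr12:109592888-109592909, miR-370 is within Rian at chr12:109618305-109618326, miR-494 is at chr12:109715367-109715388 and miR-410 is within Mirg at chr12:109743764-109743784. The 62 sequences carried 61 different seeds. The one seed found in more than 1 row belonged to miR-376b* and miR-376c*, of which miR-376c* was detected on no array. The seeds of miR-376a and miR-376b differed at 1 of 7 positions, as did those of miR-379 and miR-411, of miR-300 and miR-381, of miR-410 and miR-411*, and of miR-154* and miR-369-3p.

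Between 183 and 375 miRNAs were detected per array and no spot was saturated. Levels are given as log2 of the quantile-normalized total gene signal, in which signals under 2 were set to 2 (a level of 1.00), and levels of different miRNAs are not compared because each probe has its own response. Of the 71 members, 27 were detected on all 39 arrays, 31 on some and 13 on none; among the 650 miRNAs, 143 were detected on all arrays. The replicate 1 array of Wnt3a day 5 stood apart from all others (its closest array correlated at 0.89), and where it moved a count or a call the value without it is given as well. The groups follow the labels of the scanner files; in the deposited value table the columns of Activin A alone and of its combination with Wnt3a are exchanged, and if that table were right, the values given for these treatments would change places. Expression in a mixed culture cannot tell more cells that express the cluster from more RNA per cell.

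An F-test over the 13 groups (limma, adjusted p under 0.05) was passed by 48 of the 55 members that could be tested, against 88.5% of all 373 miRNAs tested. The members detected on all arrays moved largely together. Their median level, taken relative to each member's own mean over the groups, was -0.38 in ESCs and between -0.48 and -0.19 at day 1, then between 0.33 and 0.56 in the 4 day 3 groups. At day 5 it was -0.08 in control and -0.29 with Wnt3a (-0.28 without its replicate 1 array), against 0.31 with Activin A and 0.26 where Wnt3a was added to it. Over the same groups the median of all 143 miRNAs stayed between -0.37 and 0.11, the lowest being that of Wnt3a day 5 (-0.23 without its replicate 1 array).

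**Figure D1:**
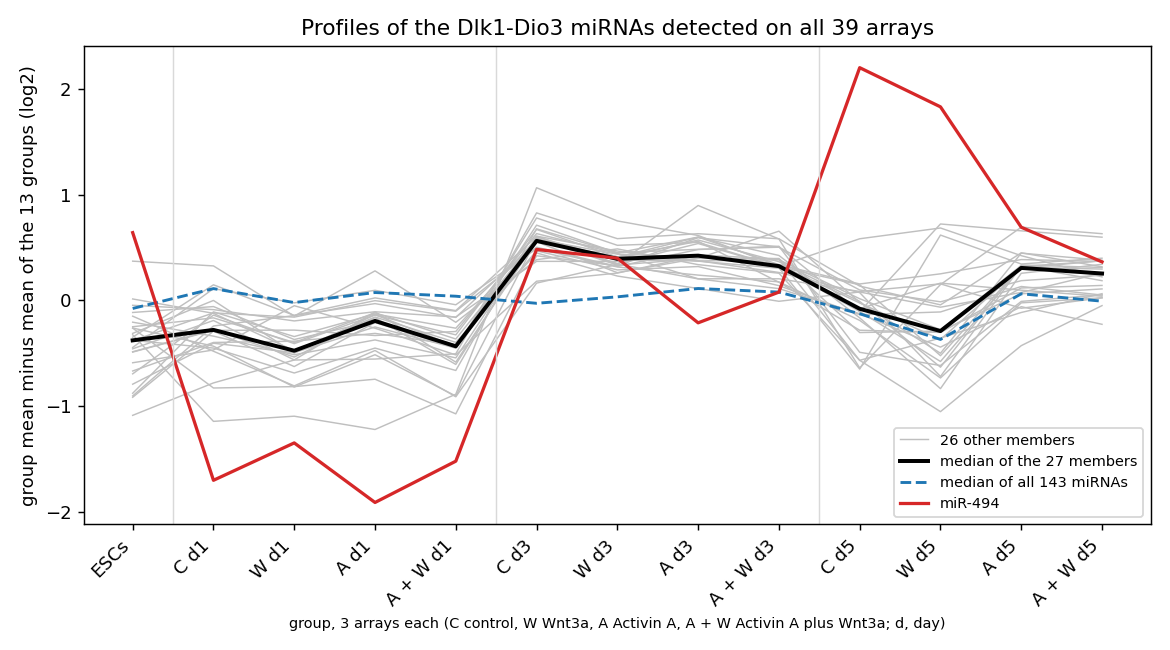
Each line is 1 of the 27 members detected on all 39 arrays, plotted as its group mean minus its mean over the 13 groups (log2, y axis) against the groups (x axis, 3 arrays each). The black median of the members is at its highest, 0.56, in control day 3, whereas miR-494 (red) falls at day 1 and reaches its highest level in control day 5; the dashed line is the median of all 143 miRNAs detected on all arrays.

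Of these 27 members, 24 had their highest group mean at day 3, 18 of them in control day 3, and 19 had their lowest in ESCs or at day 1 (24, 18 and 21 without the replicate 1 array of Wnt3a day 5). No matching counts over all miRNAs are given for these or for the correlations that follow. How far they are particular to the cluster was not tested. As a description over the 13 group means, which share normalization and slides, the correlation of a member with the median of the others was above 0.7 in 22 of 27 and above 0.9 in 11, up to 0.99 for miR-411. It was lowest for miR-494 (0.29) and miR-154* (0.33). The 6 profiles nearest to miR-127 were miR-300 (0.91), miR-541 (0.90), miR-431 (0.89), miR-18b (0.87), miR-370 (0.85) and miR-329 (0.84), of which miR-18b is not a member. The 6 nearest to miR-410 were all members, led by miR-431 (0.96) and miR-376a (0.94). Of the 20 nearest profiles, 13 were members for miR-127, 9 for miR-410 and 1 for miR-494. None of the 6 profiles nearest to miR-494 was a member of the cluster. They were miR-689 (0.97), miR-690 (0.97), miR-17* (0.94), miR-135a* (0.94), miR-500 (0.94) and miR-106b (0.92), and these were looked for after the values of miR-494 had been seen.

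The first day of differentiation without growth factors was compared within 1 slide, which held the arrays of ESCs and of control day 1. A miRNA is called changed at an adjusted p under 0.05 and a difference of more than 2-fold (1 on the log2 scale). By this rule 3 members were higher and 1 was lower at control day 1, against 16.6% of all miRNAs called either way (8.58% higher, 8.04% lower). The member that was lower was miR-494. Its levels were 11.13, 10.81 and 10.98 in ESCs and 8.43, 8.94 and 8.52 in control day 1, and the groups did not overlap. It fell by 2.34 (SE 0.27) on the log2 scale, with an adjusted p of 6.38e-08 (limma); with normexp background correction the difference was -1.35 and not called (adjusted p = 0.319, limma). The total signals before normalization were 754.6 to 1401 in ESCs and 155.8 to 276.2 in control day 1.

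The 3 members called higher were miR-369-5p, miR-409-5p and miR-434-5p, detected on 1, 0 and 1 of the 3 ESC arrays. Their size rests on ESC arrays set to the floor and no fold is given. The members detected throughout differed less. miR-376a fell by 0.57 (SE 0.13, adjusted p = 0.00094, limma) and miR-541 rose by 0.31 (SE 0.11, adjusted p = 0.0245, limma), while miR-127 was at 8.05 on each ESC array and at 8.22, 8.32 and 8.22 in control day 1 (adjusted p = 0.244, limma). Over the 27, 7 were higher and 4 lower at an adjusted p under 0.05. Among the 143 miRNAs detected on all arrays, 38 were higher and 29 lower by this test, and 30.3% of all miRNAs tested passed either way. The median difference was 0.21 for the 27 against 0.06 for the 143. With 75th percentile scaling over the miRNAs detected on all arrays both medians were 0.34, and with normexp background correction they were 0.06 and 0.05.

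The largest movement of the cluster was between day 1 and day 3 in control cells. Of the 55 members tested, 23 were called higher and none lower (limma), against 32.2% of all miRNAs called higher and 17.2% called lower (49.3% either way). In all 45 members had an unadjusted p under 0.05, against 249 of all 373 miRNAs. All 42 members that also passed adjustment were higher, where 63.5% of all miRNAs passed in either direction. All 27 members detected on every array had a difference above 0, and 25 of them rose at an adjusted p under 0.05. Among the 143 miRNAs detected throughout, 60 rose and 57 fell by the same test. The median difference was 0.80 for the 27 members and -0.09 for the 143. The control arrays of day 1 and day 3 shared a scan session but no slide. A fit with slide as a block could separate slide from time only through Activin A day 1 and control day 3, whose arrays were split between slides.

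Of the 23 called members, 8 were detected on all arrays of both groups. These were miR-370, miR-494, miR-541, miR-376a, miR-431, miR-329, miR-323-3p and miR-410. miR-370 was at 5.32, 5.80 and 5.46 at day 1 and at 7.60, 7.82 and 7.79 at day 3. It rose by 2.21 (SE 0.29), or 4.64-fold, with an adjusted p of 9.76e-08 (limma). All 3 day 3 arrays lay above all 3 day 1 arrays. With slide as a block the difference was 1.32 and was not called (adjusted p = 0.0657, limma), while the other 7 kept the call.

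miR-494 returned from 8.43, 8.94 and 8.52 at day 1 to 10.81 on each of the 3 day 3 arrays, where quantile normalization gave it the same rank and thus no spread; the total signals behind these were 1826 to 2133. It rose 4.55-fold (adjusted p = 4.04e-08, limma), to about its ESC level. miR-541 was at 6.58, 6.72 and 6.78 and then at 8.22, 8.26 and 8.43, a rise of 1.61 (SE 0.11, adjusted p = 7.20e-14, limma). miR-431, which like miR-127 lies antisense to Rtl1, went from 6.93, 6.97 and 6.97 to 8.05, 8.07 and 8.14 (1.13, SE 0.08, adjusted p = 2.07e-13, limma). miR-410 went from 7.88, 7.64 and 7.76 to 8.78 on each array (1.01, adjusted p = 6.22e-14, limma). In each of these members the groups were fully apart.

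miR-376a went from 6.46, 6.48 and 6.41 to 7.71, 7.85 and 7.54 (1.25, SE 0.13, adjusted p = 1.47e-09, limma), and its close relative miR-376b rose by 0.46, which is below the 2-fold limit. miR-323-3p rose by 1.07 and miR-329 by 1.12. miR-127 was at 8.22, 8.32 and 8.22 and then at 9.16, 9.13 and 9.22, a rise of 0.92 (SE 0.12, adjusted p = 1.69e-07, limma) that fell short of 2-fold. The smallest difference of the 27 was that of miR-154*, at 0.06 with a 95% interval from -0.31 to 0.42; the other arm of its hairpin, miR-154, rose by 0.56.

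**Figure D2:**
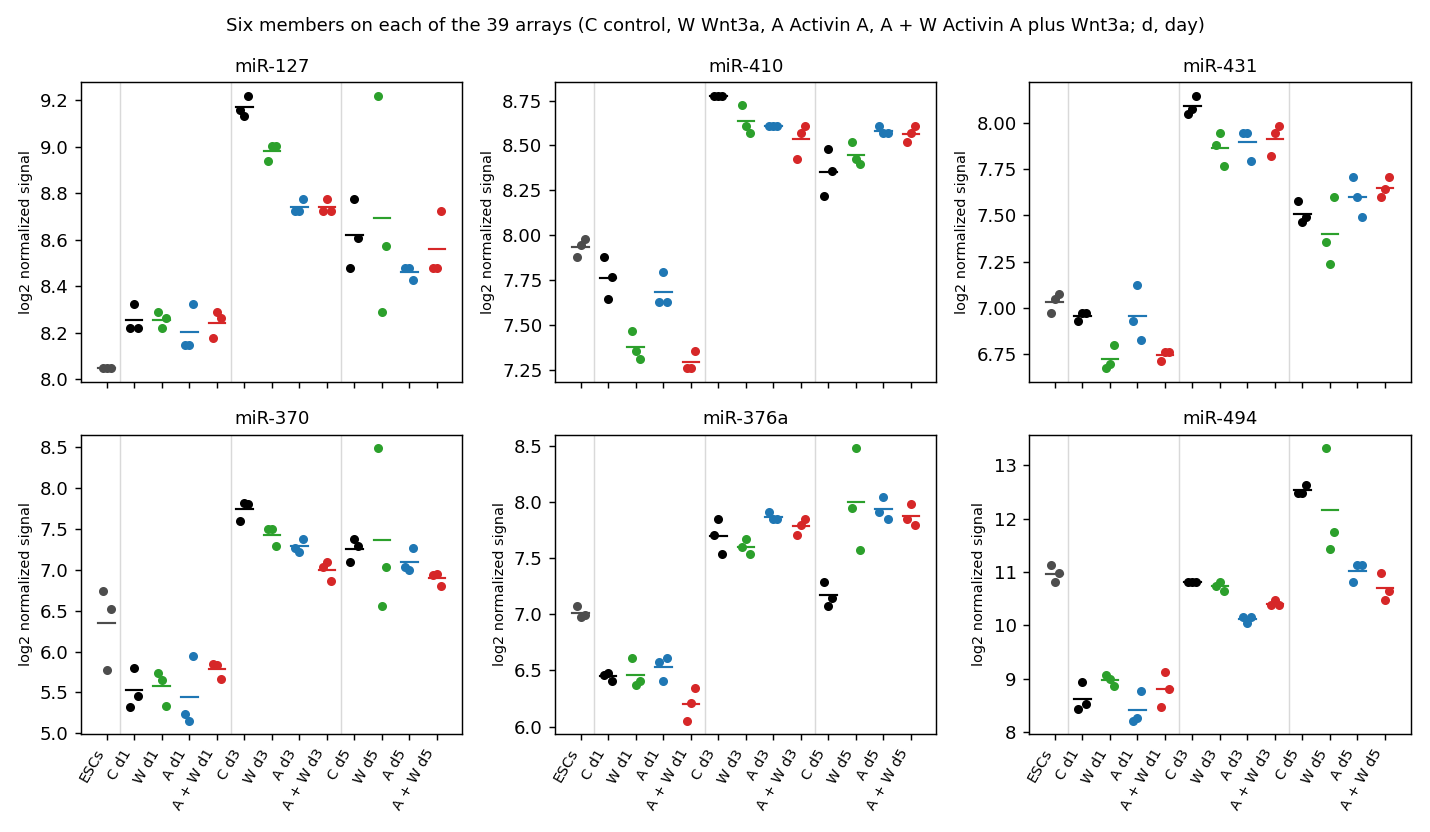
Level of 6 members on each of the 39 arrays (log2 normalized signal, y axis; dots, arrays; bars, group means) by group. In miR-127, miR-410, miR-431, miR-370 and miR-376a all control day 3 arrays lie above all control day 1 arrays; in miR-494 the 3 control day 5 arrays (12.48 to 12.64) lie above those of control day 3, and the replicate 1 array of Wnt3a day 5 lies apart from its group.

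The other 15 called members were missed on 1 or more of the 3 day 1 arrays, so that their change of level is only partly measured. miR-134, known from neurons, where it acts on dendritic spines, was undetected on 1 day 1 array and at 4.91 and 4.70 on the others, against 6.19, 6.12 and 6.21 at day 3. miR-380-3p, miR-382* and miR-433 were detected on 1 of 3 day 1 arrays, and miR-487b on 2 of 3. A further 10 were undetected on all 3. Of these, miR-136* was at 5.19, 5.14 and 4.57 at day 3, at least 1.35-fold above the mean, over the 3 day 1 arrays, of the lowest level detected on each (5.07, 3.93 and 4.60), and miR-369-3p was at least 1.2-fold above it. These bounds rest on that mean, since the day 3 levels of miR-369-3p lay below the limit of 5.07 on the replicate 1 array. For the other 8 (miR-376a*, miR-376b*, miR-431*, miR-433*, miR-496, miR-665, miR-667 and miR-770-3p) the day 3 level lay below that mean and no fold is given. The lowest detected signal was 12.3 to 34.4 on the ESC and day 1 arrays and 0.176 to 11.3 on the later ones. Altogether 11 members were detected on none of the 15 ESC and day 1 arrays but on at least 12 of the 24 later ones, where weaker signals were detected. Beside those called from day 1 to day 3 they include miR-299 and miR-539.

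By position, the median difference was 0.75 for the 6 members detected on all arrays that lie within the annotated span of Rtl1. These are miR-337-5p, miR-337-3p, miR-431, miR-127, miR-434-3p and miR-136. The median was 0.78 for the 20 members detected on all arrays of the group around Mirg. Both arms were detected on all arrays for miR-411 and miR-411*, which rose by 0.88 and 0.95, and for miR-337-5p and miR-337-3p, which rose by 0.46 and 0.80. The same held for miR-154 and miR-154*, whose differences of 0.56 and 0.06 were less alike.

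**Figure D3:**
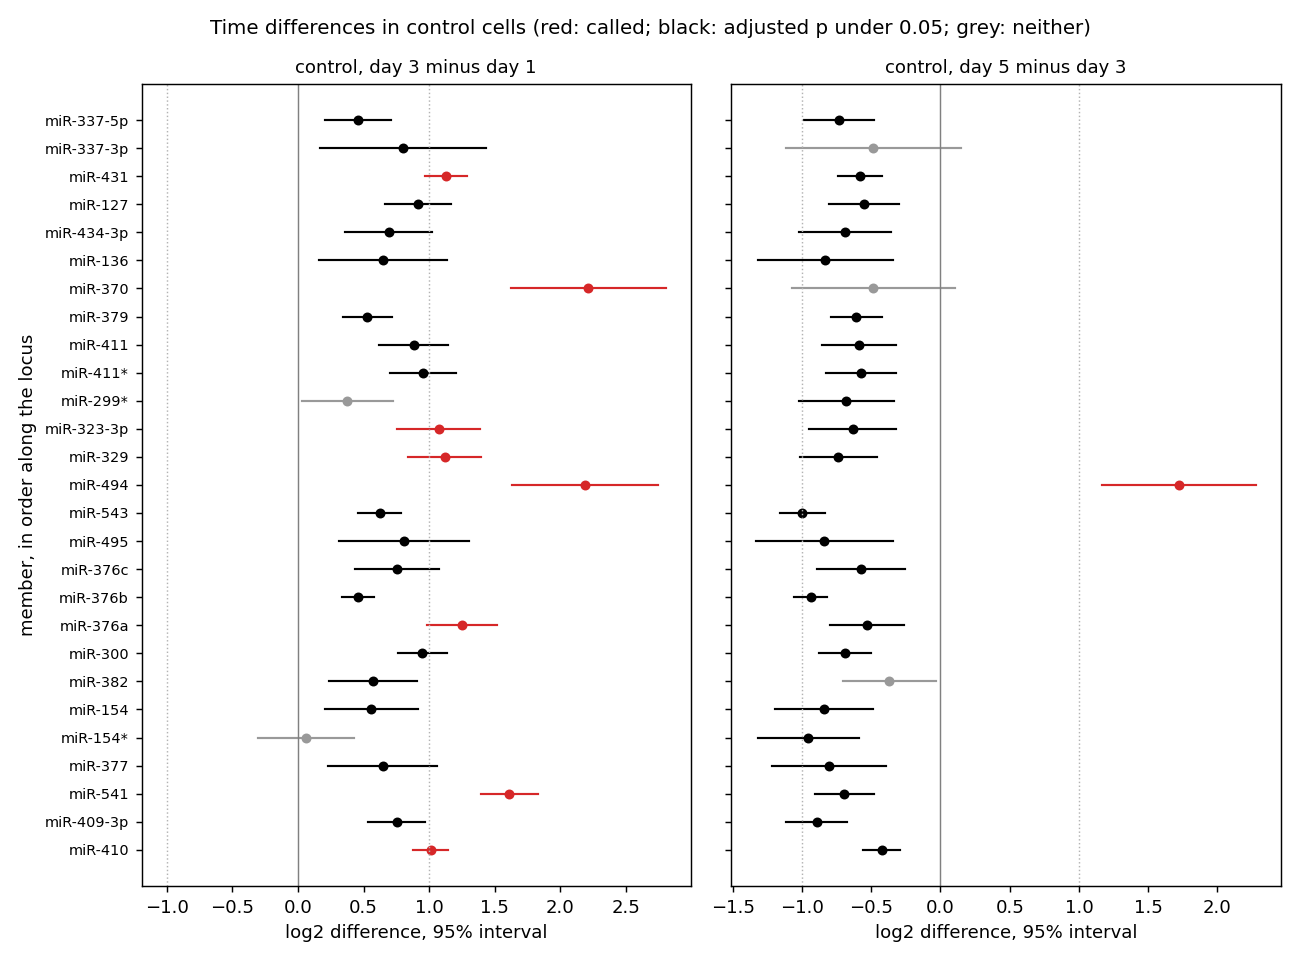
Difference in control cells from day 1 to day 3 (left) and from day 3 to day 5 (right) for the 27 members detected on all arrays, in order along the locus (log2 difference with its 95% interval; dotted lines, 2-fold). All 27 points are above 0 on the left, and all but miR-494 are below 0 on the right.

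Of the 8 markers of fibroblasts and mesenchyme listed, 7 were on the array, and their summed level was lower at days 3 and 5 than before. It was 11.64 to 12 on the ESC and day 1 arrays, 9.71 to 10.51 at day 3 and 9.60 to 10.80 at day 5, most of it from miR-21. miR-199a-3p was at 9.41 in control day 1 and at 4.47 in control day 3, and miR-199a-5p (7.20 in control day 1) and miR-214 (6.27) were detected on none of the 12 day 3 arrays, whereas miR-145 was detected on none of the ESC, day 1 or day 3 arrays. miR-21 was at 9.81 in control day 3. The neural list of 4, which holds miR-124 and miR-9, had a summed level of 5.47 to 5.86 in control day 1 and 7.50 to 7.93 in control day 3, and the part of either list in the rise was not tested. With slide as a block, 32 members in place of 42 rose at an adjusted p under 0.05, and 26 in place of 23 were called. Normexp background correction in place of the scanner's own left 1 call, miR-494, while the other 7 called members detected throughout kept a positive difference of 0.54 to 1.00.

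**Figure D4:**
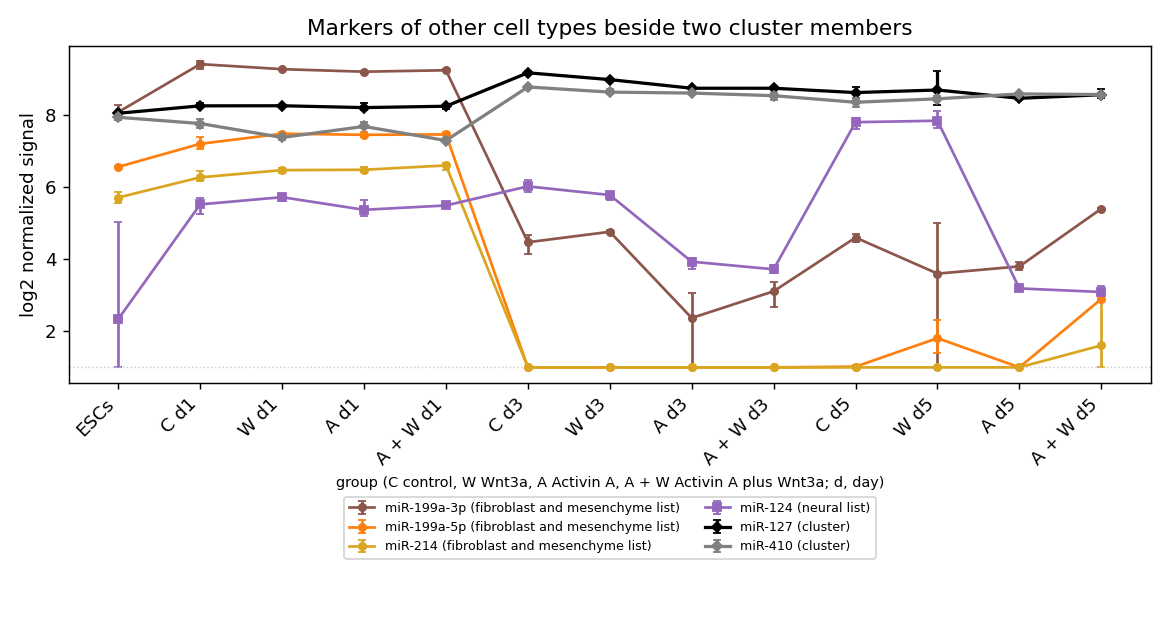
Group means of 4 marker miRNAs and 2 members of the cluster (log2 normalized signal; bars span the lowest and highest of 3 arrays; dotted line, floor). miR-199a-5p and miR-214 are at or near the floor at day 3, where miR-127 and miR-410 are at their highest in control, and miR-124 is at 7.80 in control day 5 and 7.84 in Wnt3a day 5.

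From day 3 to day 5 most members fell again in control cells, and miR-494 rose. Of 55 members, 1 was called higher and 4 lower, against 18.5% of all miRNAs called either way (10.2% higher, 8.31% lower). Of the 27 detected on all arrays, 23 fell at an adjusted p under 0.05 and 1 rose. Among the 143 miRNAs detected on all arrays, 68 fell and 31 rose by this test, and 41.6% of all miRNAs tested passed in either direction. The median difference was -0.68 for the 27 against -0.39 for the 143. The control arrays of days 3 and 5 lay on different slides and in different scan sessions, and no group spanned both sessions, so that session and time cannot be told apart here. miR-127 went to 8.48, 8.78 and 8.61, a fall of 0.55 on the log2 scale (adjusted p = 0.000516, limma). miR-410 went to 8.22, 8.48 and 8.36, a fall of 0.42 (adjusted p = 3.93e-06, limma), and both stayed above all their control day 1 arrays. miR-543 fell by 1.00, just within 2-fold.

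The 4 members called lower were arms with weak signals on the arrays. miR-376b* was at 3.74, 4.07 and 3.55 at day 3 and at 1.85, 2.25 and 2.13 at day 5. miR-376a* was at 2.57, 3.52 and 2.21 and then at 2.21, 1.39 and 1.07, so that its groups overlapped. miR-431* and miR-665 were at or next to the floor at day 5, and the size of their fall depends on it. The count of 5 became 8 without the replicate 3 array of control day 3 and 3 with scaling to the 75th percentile of the miRNAs detected on all arrays.

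miR-494 rose to 12.48, 12.48 and 12.64 at day 5, by 1.72 (SE 0.27) or 3.30-fold over day 3 (adjusted p = 5.06e-06, limma), and the groups did not overlap. Its total signals were 1826 to 2133 at day 3 and 3898 to 4063 at day 5. With 75th percentile scaling the difference was 0.90 (adjusted p = 0.052, limma), so that the direction held and the call did not. Normexp background correction moved the median of the 27 members to 0.02, with 14 of them above 0, and that of all 143 from -0.39 to 0.06, so that the direction of the fall of the other members depends on the scaling.

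Wnt3a and Activin A changed the cluster little on the first days. At day 1 no member was called in any of the 4 comparisons (limma), where 4.17% of all miRNAs were called for Wnt3a, 0% for Activin A, 5.42% for Activin A plus Wnt3a and 0.833% for Activin A plus Wnt3a against Activin A. Unadjusted p-values under 0.05 were found for 15, 2, 17 and 16 of the 36 members tested, against 92, 40, 91 and 65 of all 240 miRNAs. The plain test of the methods also called no member. With Activin A alone the 95% intervals of all 27 members detected on every array lay within 2-fold, between -0.71 and 0.66. With Wnt3a 11 of them were lower at an adjusted p under 0.05, and with both factors 9, where 20% and 25% of all miRNAs passed in either direction. miR-410 for example was at 7.88, 7.64 and 7.76 in control, at 7.46, 7.36 and 7.31 with Wnt3a and at 7.26, 7.26 and 7.36 with both. The control arrays were on 1 slide and those with Wnt3a on another, joined only by the Activin A arrays, and with slide as a block none of the members was lower at this threshold. With normexp background correction the direction turned, with 18 of 27 above 0 for Wnt3a (median 0.07) and 16 of 27 for both factors (0.06), while the medians of all 143 miRNAs were 0.14 and 0.13.

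At day 3 the treated cells had slightly less of most members than control. No member was called with Wnt3a (3.07% of all miRNAs were), and none with Activin A plus Wnt3a (20.2%). An unadjusted p under 0.05 was found for 29 and 31 of the 52 members tested, against 146 and 207 of all 326 miRNAs. The plain test called no member in either comparison. At an adjusted p under 0.05, 26 members were lower with Wnt3a and none higher; 26 were lower and 2 higher with both factors; and 21 were lower and 4 higher with Activin A. Of all miRNAs 35%, 59.5% and 56.4% passed in either direction. The medians over the 27 members were -0.18, -0.25 and -0.17, against 0.00, -0.02 and -0.01 over the 143 miRNAs. With normexp background correction 8, 23 and 25 of the 27 were above 0, so that the direction turned with Activin A and with both factors; the medians of all 143 miRNAs then shifted up as well, to 0.24 and 0.26. The Activin A plus Wnt3a arrays shared no slide with the others of day 3.

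With both factors, miR-370 had the largest decrease at day 3 of the 27 members detected on all arrays. It was at 7.60, 7.82 and 7.79 in control, at 7.49, 7.49 and 7.29 with Wnt3a, at 7.26, 7.22 and 7.38 with Activin A and at 7.03, 7.10 and 6.86 with both. The last of these differences was -0.74 (SE 0.09, adjusted p = 7.37e-05, limma). miR-127 was lower by the same 0.43 with Activin A and with both (adjusted p = 1.63e-05 and 1.47e-05, limma), where its levels lay between 8.72 and 8.78. The single call at day 3, against 19% of all miRNAs, was miR-299 with Activin A, at 2.91, 2.74 and 2.88 against 2.31, 1.00 and 2.15 in control (adjusted p = 0.0479, limma), 1 of the control arrays being undetected. It was lost when any of the Activin A arrays or the replicate 2 or 3 array of control was left out. Activin A plus Wnt3a against Activin A gave no call at day 3 (3.99% of all miRNAs), and the plain test called no member. Of the 52 members 23 had an unadjusted p under 0.05, against 126 of all 326 miRNAs.

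At day 5 most members had a higher level with Activin A than in control, few of them past the 2-fold limit, and miR-494 was lower. With Activin A 4 members were called higher and 1 lower, against 25% of all miRNAs called (13.6% higher, 11.4% lower), and with Activin A plus Wnt3a 5 were higher and 2 lower, against 30.4% (15.5% higher, 14.9% lower). Both shares lie under the background. The differences were above 0 in 45 and 43 of the 55 members tested, against 157 and 176 of all 368 miRNAs. Both comparisons share the same control arrays. The medians over the 27 were 0.31 with Activin A and 0.24 with both, against 0.14 and 0.23 over the 143 miRNAs, so that with both factors the median of the members lay close to that of all miRNAs.

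miR-377, from the Mirg end of the cluster, was at 5.40, 5.26 and 5.35 in control, at 6.66, 6.80 and 6.56 with Activin A and at 6.58, 6.74 and 6.52 with both. It was 2.52-fold higher with Activin A (difference 1.33, SE 0.26, adjusted p = 0.00291, limma) and 2.41-fold higher with both (1.27, SE 0.26, adjusted p = 0.0033, limma). The treated arrays lay above all control arrays. With normexp background correction the differences were 0.78 and 0.72, and with 75th percentile scaling that with both factors was 0.92, all under 2-fold. At day 3 the control arrays had been at 6.32, 6.43 and 5.68.

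Both arms of the miR-136 hairpin, which lies antisense to Rtl1, were higher. miR-136* was at 4.03, 4.11 and 4.05 in control, at 5.35, 5.37 and 5.19 with Activin A (difference 1.24, SE 0.31, adjusted p = 0.0106, limma) and at 5.35, 5.12 and 5.14 with both (1.14, SE 0.31, adjusted p = 0.0134, limma). miR-136 was at 5.80, 5.29 and 5.61 in control, at 6.56, 6.59 and 6.53 with Activin A, where its difference of 1.00 fell just short of 2-fold, and at 6.55, 6.80 and 6.50 with both (1.05, SE 0.34, adjusted p = 0.0312, limma). The groups did not overlap in either arm. With 75th percentile scaling over the miRNAs detected on all arrays the differences of miR-136* were 0.71 and 0.65, under 2-fold, and with normexp background correction they were 0.30 and 0.21 (adjusted p = 0.204 and 0.353, limma). That of miR-136 with both factors was 0.73 under the former (adjusted p = 0.0578, limma).

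The remaining calls upwards were of weaker signals. miR-376a* was at 2.21, 1.39 and 1.07 in control, at 2.67, 2.67 and 2.98 with Activin A and at 3.32, 3.23 and 3.04 with both. miR-433, antisense to Rtl1, was called with Activin A only (difference 1.18, adjusted p = 0.0494, limma); with both factors the difference was 1.01 (adjusted p = 0.0742, limma). miR-665 was called with both only, at 2.95, 2.49 and 2.02 against control arrays at or next to the floor. The main arm miR-376a was 0.77 higher with Activin A (adjusted p = 0.0118, limma) and miR-410 0.23 higher (adjusted p = 0.0283, limma), although the latter did not pass with slide as a block (0.24, adjusted p = 0.066, limma) or with 75th percentile scaling (0.14, adjusted p = 0.254, limma), whereas miR-127 did not pass the test, at 8.48, 8.48 and 8.43 with Activin A and 8.48, 8.78 and 8.61 in control.

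miR-494 was the member called lower in both. It was at 12.48, 12.48 and 12.64 in control, at 10.81, 11.13 and 11.13 with Activin A and at 10.98, 10.47 and 10.64 with both. The differences were -1.51 (SE 0.41, adjusted p = 0.0181, limma) and -1.84 (SE 0.41, adjusted p = 0.00549, limma). Treated arrays lay below all control arrays, at total signals of 3279 to 3404 and 1896 to 2629 against 3898 to 4063. With 75th percentile scaling the differences were -0.70 (adjusted p = 0.381, limma) and -1.13 (adjusted p = 0.15, limma), which kept the direction and lost the call. miR-770-3p, at the Meg3 end, was at 4.84, 4.35 and 4.72 in control and at 3.74, 3.40 and 3.08 with both (adjusted p = 0.0482, limma).

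**Figure D5:**
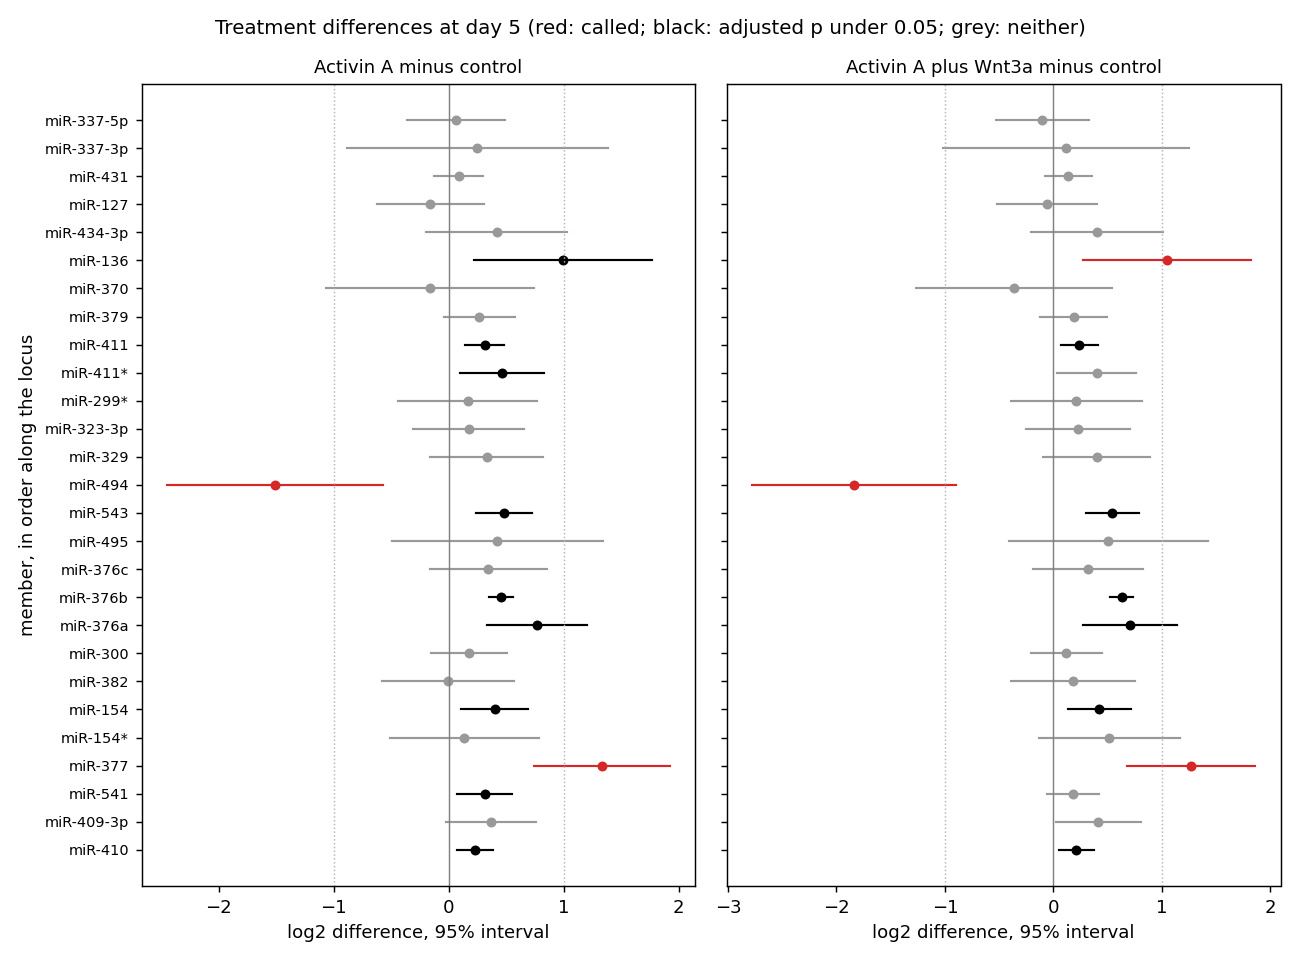
Difference at day 5 between Activin A and control (left) and between Activin A plus Wnt3a and control (right) for the 27 members detected on all arrays (log2 difference with its 95% interval; dotted lines, 2-fold), in order along the locus. In both panels 23 of 27 points are above 0, against 78 (left) and 85 (right) of the 143 miRNAs detected on all arrays. In both miR-494 is called lower and miR-377 higher, and miR-136 is called higher on the right.

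Control and 2 of the Activin A arrays of day 5 shared a slide. Between these arrays miR-377 was 1.39 higher with Activin A (adjusted p = 0.00915, limma) and miR-136* 1.30 higher (adjusted p = 0.025, limma). miR-494 was 1.56 lower (adjusted p = 0.0419, limma), and miR-376a* (adjusted p = 0.0967, limma) and miR-433 (adjusted p = 0.0623, limma) did not pass. The p-values come from the day 5 fit without the replicate 3 array of Activin A. The spread in that fit also draws on arrays of the other slide. The Activin A plus Wnt3a arrays were on the other slide, and with slide as a block none of its 7 calls held, miR-377 keeping a difference of 1.44 (adjusted p = 0.0737, limma). The Activin A count of 5 became 2 without the replicate 1 array of Activin A or the replicate 3 array of control, 3 without the replicate 3 array of Activin A or the replicate 2 array of control, and 6 without the replicate 1 array of Wnt3a day 5, which enters the pooled spread; the count for both factors became 9 without the last. In the same cells the neural list stood at 9.55 to 9.94 in control, 6.28 to 6.45 with Activin A and 5.23 to 5.40 with both, the 9 ESC markers at 12.95 to 13.07, 14.69 to 14.85 and 14.96 to 15.05, and of the 4 endoderm markers miR-375 was undetected in control and at 5.61 and 6.27, while miR-122, miR-192 and miR-194 were detected in none of the 3 groups. Their part in these differences was not tested.

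Wnt3a alone gave no call at day 5 (limma), against 3.8% of all miRNAs, and the plain test called no member. An unadjusted p under 0.05 was found for 9 of 55 members, against 76 of all 368 miRNAs. The replicate 1 array of Wnt3a went its own way, for example in miR-494 (13.32 against 11.43 and 11.75), miR-370 (8.48 against 6.56 and 7.03) and miR-369-5p (2.46 against 5.33 and 5.58). Without it 1 member was called, and without the replicate 3 array 3 were. The difference of miR-494 was -0.37 (95% interval -1.31 to 0.57) and turned to 0.57 with 75th percentile scaling; without the replicate 1 array it was -0.95 (adjusted p = 0.00421, limma), under 2-fold. Activin A plus Wnt3a against Activin A gave no call either (limma, 2.72% of all miRNAs), and the plain test called no member. Here 3 of 55 members had an unadjusted p under 0.05, against 48 of all 368 miRNAs. The differences of the 27 members lay between -0.33 and 0.38, and the 95% intervals of 22 of them lay within 2-fold, the widest, that of miR-337-3p, reaching from -1.27 to 1.00.

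Whether the effect of a treatment differed between days was tested directly, as an interaction in the fit of all arrays (limma). Between day 3 and day 5 the effect of Activin A differed at an adjusted p under 0.05 in 12 of 55 members, against 20.9% of all miRNAs, and that of both factors in 23, against 28.4%. Of the latter, 21 shifted upwards, among them miR-376b by 0.61 (adjusted p = 2.06e-06, limma), miR-410 by 0.46 (adjusted p = 0.000366, limma) and miR-543 by 0.54 (adjusted p = 0.000556, limma). The 2 that shifted downwards were miR-494 and miR-770-3p. For Wnt3a 2 members differed, miR-136 and miR-376a, against 4.83%. With slide as a block, 10 members differed for Activin A and none for Wnt3a, against 17.2% and 1.07% of all miRNAs. For both factors slide could be fitted only as a random block, which gave 28 members against 35.4% of all miRNAs. The day 3 arrays of that treatment lay in another scan session than those of control, so that session and treatment cannot be told apart. Without the replicate 1 array of Wnt3a day 5 the counts were 23 for Activin A, 32 for both factors and 5 for Wnt3a. The shares of all miRNAs were then 30.8%, 38.6% and 8.85%.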

How the data were processed

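Total RNA from 39 samples was hybridised to Agilent mouse miRNA arrays (Cy3). The deposited scanner files give, for each miRNA, an intensity summed over its probes by the authors' Feature Extraction software (9.5.3.1 per the labels, 10.7.3.1 per the file headers), with a detection flag. As in the authors' methods, intensities were quantile normalized across arrays; signals under 2 were set to 2 and log2 taken. A miRNA was tested where detected on at least 2 of 3 arrays of a group. Time comparisons and the F-test used 1 fit of 39 arrays and treatments the 12 arrays of a day (limma 3.58.1, R 4.3.3, Benjamini-Hochberg over all miRNAs tested), with calls at an adjusted p under 0.05 and over 2-fold. The authors' deposited value table holds log2 values and served as an alternative. Of its 39 columns, 18 match the scanner output of another array, Activin A and Activin A plus Wnt3a being exchanged; groups follow the scanner files, and which deposit is right could not be settled. In tests on simulated data of 373 miRNAs for control day 1 to day 3, 29 of 30 changes of 2 on the log2 scale and 23 of 30 of 1.5 were recovered. The changes were placed only in miRNAs with mean levels well above the floor, and no loss of detection was simulated. The recovery therefore does not cover members near the floor.

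Members, marker lists and named members (those called, those detected on all arrays, 8 set by name, arm pairs and shared seeds; where over 10 were called, the 5 largest changes among those detected on all arrays of both groups in full) were chosen with earlier results of these data known. The interaction test and 3 alternatives (matched table columns, quantile normalization of log2 signals, leaving out the replicate 1 array of Wnt3a day 5), and the interaction with slide as a block, were added after the values were seen. The comparisons were repeated with 75th percentile scaling, normexp background correction, other floors and filters, slide or replicate number as a block, other sets of arrays, leaving out each array, and a plain test of each miRNA with no shared estimate of spread. No depth exists for arrays; 3 per group limits the precision. Old arm names were matched to RefSeq names by hand.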

Additional observations from a re-analysis of the deposited data

Results flagged for a closer look

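The effect of a treatment differed between days (interaction, adjusted p under 0.05, limma) in the following members, each value being the difference in effect on the log2 scale. Between day 1 and day 3 the effect of Activin A differed in 1 of 55 members, miR-299 (1.02), and that of Wnt3a in 1 (miR-541). That of Activin A plus Wnt3a differed in 3, among them miR-377 (0.85). Of all 373 miRNAs tested, 15%, 9.38% and 21.4% differed for these treatments. Between day 3 and day 5 the effect of Wnt3a differed in 2 members (4.83% of all miRNAs) and that of Activin A in 12 (20.9%), among them miR-136* (0.86) and miR-299 (-0.92). The effect of Activin A plus Wnt3a differed in 23 (28.4%), among them miR-665 (1.56), miR-376a* (1.32), miR-136* (1.10), miR-136 (0.92), miR-377 (0.85), miR-770-3p (-1.03) and miR-494 (-1.44). With slide as a block, miR-299 with Activin A between day 3 and day 5 passed (-1.27, adjusted p = 0.0126, limma) and miR-136* did not (0.80, adjusted p = 0.0831, limma). The day 3 arrays of Activin A plus Wnt3a shared no scan session with control day 3, and for that treatment session and effect cannot be told apart. With 3 arrays a group, single arrays were not tested as outliers.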

How the results depend on the processing

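Among the counts of called members, 178 values under other settings stayed within 1.5 times the main count and 57 did not; for named members 2099 stayed on the same side of the threshold, 116 of them uncalled values that changed sign, 159 lost the call and 5 called values changed sign. Normexp background correction gave 0 calls from ESCs to control day 1, 1 from day 1 to day 3, 1 from day 3 to day 5, 0 for Activin A at day 3 and 1 each for Activin A and for both factors at day 5, and turned miR-299 with Activin A at day 3 (-0.10) and, from day 1 to day 3, miR-376a* (-0.048), miR-382* (-0.001) and miR-770-3p (-0.89). Scaling to the 75th percentile of miRNAs detected on all arrays gave 3 from day 3 to day 5 (miR-376a* turned, 0.11), 1 each for Wnt3a and both factors at day 1, 0 for Activin A and 1 for both against Activin A at day 3, and 2, 2, 1 and 1 at day 5 (Wnt3a, Activin A, both, both against Activin A); over all miRNAs, 0 for Activin A at day 3 and 2, 2 and 1 for the last 3. A floor of 8 gave 2 from day 3 to day 5, 1 each for Wnt3a and both at day 1, 0 for Activin A at day 3, and 3 and 4 for Activin A and both at day 5; a floor of 1 gave 0 for Activin A and 1 for both at day 3, and 1 for Wnt3a at day 5. The deposited table gave 2 for both against Activin A at day 3 and 1 each for that and for Wnt3a at day 5, with columns as named or matched; matched, also 0 for Activin A and 1 for both at day 3. Quantile normalization of log2 signals gave 0 for Activin A at day 3, and 1 and 4 for Wnt3a and both at day 5; within the day, 1 each for Wnt3a and both at day 1, 0 for Activin A at day 3, and 1, 2, 3 and 1 at day 5. The fit of 39 arrays gave 1 and 2 for Wnt3a and both at day 1 and 2 for Wnt3a at day 5. The plain test gave 1 from ESCs to control day 1 and 0 for Activin A at day 3; no filter gave 0 and 3 for Activin A at days 3 and 5; slide as a block gave 3 and 0 for Activin A and both at day 5. The causes were not tested. Leaving out 1 array gave 3 to 6 calls from ESCs to day 1, 20 to 25 from day 1 to day 3, 4 to 8 from day 3 to day 5 and 48 to 50 over the 13 groups; 0 to 1, 0 to 0, 0 to 1 and 0 to 0 at day 1, 0 to 0, 0 to 1, 0 to 1 and 0 to 1 at day 3, and 0 to 3, 2 to 6, 5 to 9 and 0 to 1 at day 5 (Wnt3a, Activin A, both, both against Activin A). The single calls at day 1 came without the replicate 2 array of control, and those for both factors at day 3 without its own replicate 1 array or the replicate 1 or 3 array of control; against Activin A, 1 came without the replicate 1 array of both at day 3 and without the replicate 2 array of Activin A at day 5. With the replicate number as a block, the count for Activin A was 0 at day 3 and 3 at day 5. Same-numbered arrays deviated together, with all 3 correlations positive, in 2 comparisons only. These were both factors against Activin A at day 3 (0.129, 0.391 and 0.122) and Wnt3a against control at day 1 (0.234, 0.05 and 0.172). For both factors against Activin A at day 3 the block gave 0 calls as without it. Arms with signals near the detection limit, which was higher on the ESC and day 1 arrays, limit the fold changes.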
